A study of Mus musculus with 4 samples.

Results

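ATAC-seq peaks that were called in mock-treated but not in BMH-21-treated mouse pachytene spermatocytes were examined where they lie at the end of an autosomal protein-coding gene. Overlapping peaks of 4 lists were merged into 155908 regions, 127091 of them on chromosomes 1 to 19. A region was chosen when both mock lists and neither BMH-21 list held a peak in it (mock-only) and when its midpoint lay within 1 kb of an end of exactly 1 protein-coding gene. This gave 3182 regions in 2884 of 20665 autosomal protein-coding genes. They made up 24.7% of the 12892 such gene-end regions with a peak in both mock lists (exact Clopper-Pearson 95% interval 23.9 to 25.4%, for counting error only). Members were thus chosen by the presence of called peaks in the 4 lists, so that share and the peak strengths below are descriptions and carry no test. For the rest, 9022 regions had a peak in all 4 lists and are called kept, and 688 had a peak in 1 BMH-21 list.

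The treated spermatocytes, isolated from testis, received BMH-21, which blocks RNA polymerase I, at 2.5 µM for 12 h. Mock cells received the vehicle DMSO. About 10000 cells per sample were tagmented, with 2 biological replicates per group and 1 peak list for each. Separate animals were not stated, nor were strain and age, so the spread between replicates may be technical.

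ATAC-seq uses a transposase that inserts adapters into accessible DNA, so a peak marks a stretch with little nucleosome cover. In mammals the starts of broadly expressed genes lie mostly in CpG islands, which stay accessible in many cell types, while starts of tissue-restricted genes are often poor in CpG. The end of transcription is less often accessible. At pachytene the autosomes are synapsed and actively transcribed, with a broad programme of germ-cell genes.

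Promoter sequences are shown for the strongest mock-only starts, for mock-only starts poor in CpG and for kept starts. Each run below is the 250 bases before a transcription start, 5′ to 3′ on the strand of the gene, from the RefSeq promoter table on GRCm38.p6, with every CG dinucleotide in capitals. The first 4 belong to the strongest mock-only regions at transcription starts outside predicted genes. These starts are rich in CpG, with 42 CG dinucleotides in the 300-base promoter of Sema3c, 22 in Acot12, 32 in Slc1a6 and 19 in Thsd7a.
Sema3c, chr5:17574566-17574815, plus strand: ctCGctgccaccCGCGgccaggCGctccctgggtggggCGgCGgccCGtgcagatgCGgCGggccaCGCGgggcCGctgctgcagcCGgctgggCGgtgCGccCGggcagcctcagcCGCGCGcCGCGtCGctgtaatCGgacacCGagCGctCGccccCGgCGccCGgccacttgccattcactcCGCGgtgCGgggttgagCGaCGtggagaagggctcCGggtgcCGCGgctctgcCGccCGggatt
Acot12, chr13:91741271-91741520, plus strand: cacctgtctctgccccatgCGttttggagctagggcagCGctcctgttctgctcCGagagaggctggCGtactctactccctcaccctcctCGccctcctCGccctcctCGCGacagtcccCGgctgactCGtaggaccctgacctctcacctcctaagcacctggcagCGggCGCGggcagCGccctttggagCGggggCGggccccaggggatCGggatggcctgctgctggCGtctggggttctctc
Slc1a6, chr10:78780246-78780495, plus strand: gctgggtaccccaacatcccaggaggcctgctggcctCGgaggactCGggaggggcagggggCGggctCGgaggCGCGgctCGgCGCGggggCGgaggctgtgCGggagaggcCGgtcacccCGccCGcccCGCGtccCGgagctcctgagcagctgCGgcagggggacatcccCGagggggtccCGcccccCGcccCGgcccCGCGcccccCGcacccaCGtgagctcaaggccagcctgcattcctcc
Thsd7a, chr6:12749254-12749503, minus strand: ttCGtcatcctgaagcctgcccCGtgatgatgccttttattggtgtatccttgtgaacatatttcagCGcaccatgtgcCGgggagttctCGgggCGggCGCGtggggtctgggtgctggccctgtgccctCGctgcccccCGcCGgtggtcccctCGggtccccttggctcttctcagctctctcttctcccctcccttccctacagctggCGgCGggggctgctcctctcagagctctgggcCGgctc

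Start regions in both mock lists whose promoter held fewer than 5 CG dinucleotides were split by fold percentile, ranked within the mock lists. Mock-only were 85 of 113 (75.2%) at percentile 0 to 50, 43 of 90 (47.8%) at 50 to 80 and 20 of 61 (32.8%) at 80 to 100. The strongest 3 of the mock-only regions whose 300-base promoter held fewer than 5 CG dinucleotides lay at Sult2a4, Nwd2 and Hnf4a, with 1, 3 and 4. They were chosen after their values were seen.
Sult2a4, chr7:13989589-13989838, minus strand: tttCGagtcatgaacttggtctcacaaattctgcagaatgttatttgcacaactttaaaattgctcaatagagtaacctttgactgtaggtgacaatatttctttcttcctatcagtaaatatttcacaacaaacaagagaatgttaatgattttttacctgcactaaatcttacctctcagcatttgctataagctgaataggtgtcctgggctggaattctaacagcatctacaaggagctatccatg
Nwd2, chr5:63648853-63649102, plus strand: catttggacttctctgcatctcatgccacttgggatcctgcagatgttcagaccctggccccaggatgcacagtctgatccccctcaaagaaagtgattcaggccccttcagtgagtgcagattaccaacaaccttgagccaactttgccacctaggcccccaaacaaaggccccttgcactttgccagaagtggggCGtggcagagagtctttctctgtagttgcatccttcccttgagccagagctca
Hnf4a, chr2:163506607-163506856, plus strand: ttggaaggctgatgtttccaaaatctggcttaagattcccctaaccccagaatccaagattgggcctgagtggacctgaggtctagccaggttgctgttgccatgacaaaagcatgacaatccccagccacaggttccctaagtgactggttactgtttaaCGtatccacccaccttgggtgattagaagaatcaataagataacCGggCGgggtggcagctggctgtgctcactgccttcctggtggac

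The last pair are starts with a peak in all 4 libraries, in genes whose other end carried a mock-only region. Pikfyve had 20 and Golt1b 40 CG dinucleotides in the 300-base promoter, and both were likewise chosen after their values were seen.
Pikfyve, chr1:65186435-65186684, plus strand: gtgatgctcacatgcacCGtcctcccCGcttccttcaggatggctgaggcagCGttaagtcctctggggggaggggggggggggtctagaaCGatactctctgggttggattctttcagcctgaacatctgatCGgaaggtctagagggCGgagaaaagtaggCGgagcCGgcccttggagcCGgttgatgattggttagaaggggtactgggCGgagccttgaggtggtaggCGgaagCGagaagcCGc
Golt1b, chr6:142386993-142387242, plus strand: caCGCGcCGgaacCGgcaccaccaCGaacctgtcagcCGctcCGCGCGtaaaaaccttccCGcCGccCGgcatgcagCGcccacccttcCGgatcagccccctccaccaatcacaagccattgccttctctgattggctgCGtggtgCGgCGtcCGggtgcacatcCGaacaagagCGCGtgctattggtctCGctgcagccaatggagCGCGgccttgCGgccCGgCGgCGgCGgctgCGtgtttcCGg

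The libraries differed in peak number more than in the background reported with the peaks. Peak numbers were 109230 and 117905 for mock, compared with 51234 and 55459 for BMH-21. The genome-wide background recovered from the peak statistics was 4.54 and 4.31 fragments for mock against 4.46 and 4.11 for BMH-21. Of 20 pachytene marker genes, 17 had a peak at an end in every library. Spo11 lacked one in the second BMH-21 library, and Spata22 and Ccna1 had none in any. Among all autosomal regions in both mock lists, 63.7% were mock-only.

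The mock-only regions were moderate peaks. Their median fold, the deposited ratio of summit pileup to local background within a library, was 3.79 in the first and 3.88 in the second mock library. Kept gene-end regions had medians of 7.77 and 7.94. The median width was 488 bp against 1083 bp for kept regions. The median summit pileup was 47 fragments in each mock library, against 114 and 117 for kept regions. Of the 3182, 2910 (91.5%) had a −log10 q of at least 5 in both mock lists and 541 (17.0%) had at least 20. Among kept regions, 8022 of 9022 (88.9%) had at least 20 in both. Absence from a BMH-21 list means a signal below the threshold of the peak caller, not closed chromatin. At the local background of the mock peaks, a median pileup of 24 fragments would have sufficed for a call. The ratio of mock pileup to the largest pileup under that limit had a median of 1.81, against 3.99 for kept regions. It was at least 2 in 1200 regions (37.7%). This ratio takes the BMH-21 libraries to have the depth and local background of the mock peaks, which was not tested.

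**Figure D1:**
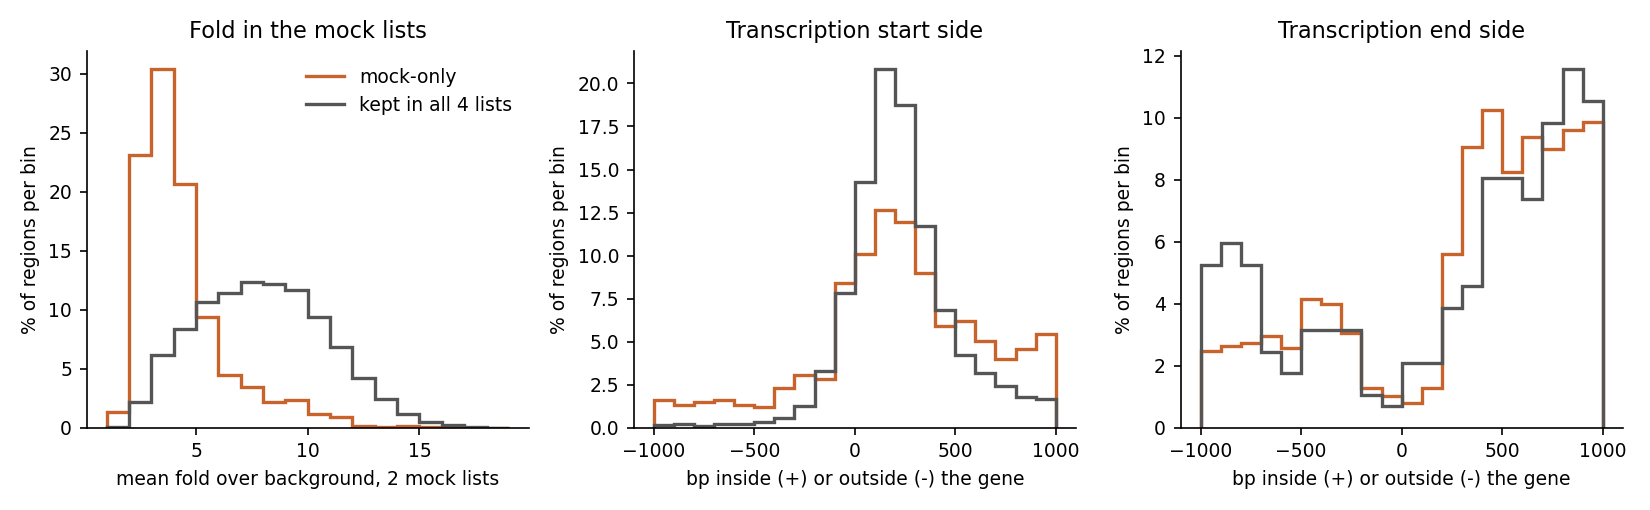
Percentage of regions per bin for mock-only and kept gene-end regions, by mean fold over background in the 2 mock lists (left) and by distance in bp of the midpoint from the transcription start (middle) or transcription end (right), positive inside the gene. The mock-only folds lie lower, with medians of 3.79 and 3.88 against 7.77 and 7.94. Midpoints gather just inside the start, and further inside the gene at the transcription end, in both classes.

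Mock-only regions were split almost evenly between the 2 ends of genes, unlike kept ones. A strand was given for the genes of 2380 regions lying at 1 end only. Of these, 1132 (47.6%, 95% interval 45.5 to 49.6%) lay at the start of transcription and 1248 (52.4%) at the end of transcription. Kept regions were at the start in 6780 of 7065 cases (96.0%) and at the end in 285 (4.03%). Put the other way, 13.7% of start regions and 72.7% of transcription-end regions in both mock lists were mock-only. Over all autosomal regions in both mock lists the share was 63.7%, so starts departed from it more than transcription ends did. The remaining members comprised 730 regions in genes without a strand in the table (26.5% of such regions) and 72 within 1 kb of both ends (40.7%). No gene of chromosome 18 had a strand. Shares by start or transcription end therefore leave out that autosome, where 82 of 348 gene-end regions were mock-only. Most midpoints, 2363 of 3182 (74.3%), fell inside the gene, with a median of 217.5 bp inside for start members and 463 bp for transcription-end members, against 203 and 468 bp for kept regions. With all lists limited to the strongest 51234 peaks, 1315 regions (12.8%) were mock-only, with 7.92% of start and 58.7% of transcription-end regions. Peaks reduced to their summits gave 31.5% of start regions.

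Peak strength went along with the share, and in each of the 5 strength classes the share was higher at transcription ends. Regions were ranked by the mean percentile of fold within the 2 mock lists. In the lowest class, percentile 0 to 20, 48.8% of start and 85.9% of transcription-end regions were mock-only. From percentile 40 to 60 the shares were 31.6% and 71.4%. In the highest class, percentile 80 to 100, they were 5.14% (269 of 5238) and 33.8% (50 of 148). The shares have no test, since the mock-only class is the rule itself.

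**Figure D2:**
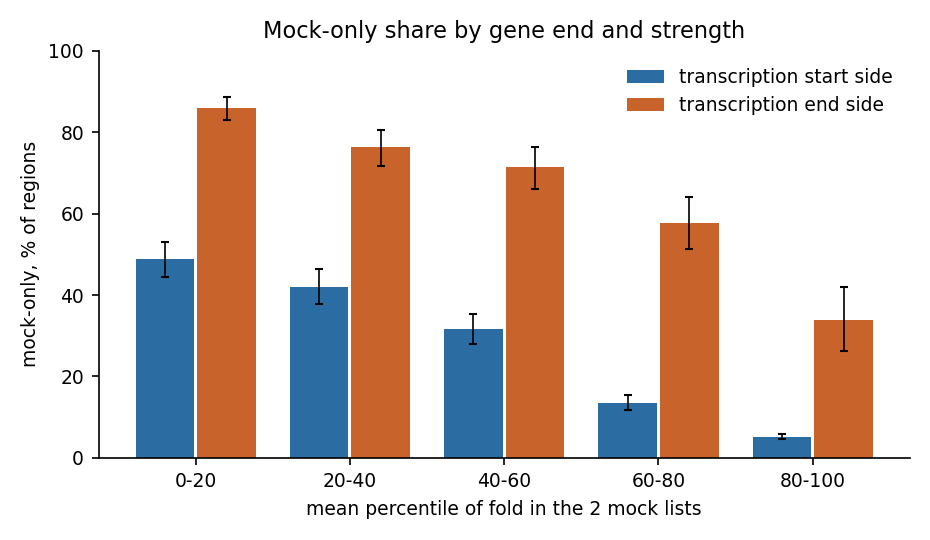
Share of mock-only regions (%) among gene-end regions in both mock lists, by class of mean fold percentile in the 2 mock lists, for transcription starts and transcription ends, with exact 95% intervals. The share falls with strength at both ends, from 48.8 to 5.14% at starts and from 85.9 to 33.8% at ends.

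Where the mock-only region lay at the end of transcription, the start of the gene mostly had a peak in every library. Such peaks lie within 1 kb of the start and need not overlap between libraries. The start had a peak in all 4 libraries in 891 of 1248 cases (71.4%, 68.8 to 73.9%). It was itself mock-only in 97 (7.77%), had no peak in any library in 165 (13.2%) and had a BMH-21-only peak in 9. By library, 1040 and 1045 of these starts had a peak in mock, against 929 and 932 after BMH-21. Starts that held members themselves are part of this fall by the rule. Kept transcription-end regions were not more often joined to a start with a peak in all 4 libraries, with 166 of 285 (58.2%, 52.3 to 64.0%).

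The strongest example was Pikfyve, which encodes a lipid kinase of endosomes. Its mock-only region on chromosome 1 (65277689 to 65278095), with a midpoint 804 bp from the transcription end, had a fold of 11.7 in mock 1 and 10.7 in mock 2 and no BMH-21 peak. The start, at the other end of the 92.1 kb gene, had folds of 13.1 and 13.7 in mock, with BMH-21 peaks of 11.3 and 10.5. All 4 libraries carried a peak at the start, and only the mock pair carried one at the other end. Folds from mock and BMH-21 lists are given side by side here and below, and their sizes are not compared, since they are not normalised between libraries. Golt1b, a Golgi transport factor, had folds of 8.48 and 9.60 at its transcription end on chromosome 6 (142414501 to 142414992). Its start had 9.16 and 9.64 in mock, with BMH-21 peaks of 7.74 and 8.70. Spaca6, a sperm protein needed for fusion with the egg, had folds of 8.81 and 8.66 at its end and 5.02 and 4.60 at its start, where the BMH-21 peaks had 5.68 and 5.43. There the lost peak was the stronger of the 2 in mock. Zfp385b, a zinc finger gene, had 7.76 and 10.0 at its end, with a start at 8.40 and 9.79 in mock, with BMH-21 peaks of 11.8 and 12.3. The Pikfyve midpoint lay inside the gene. Those at Golt1b, Spaca6 and Zfp385b lay outside it, 911, 919 and 801 bp beyond the transcription end.

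Where the mock-only region lay at the start of transcription, the other end seldom had a peak. Of 1132 such regions, the transcription end had no peak in any library in 729 (64.4%, 61.5 to 67.2%). It was also mock-only in 160 (14.1%), had a peak in all 4 libraries in 106 (9.36%) and a BMH-21-only peak in 18. By library, 329 and 333 transcription ends had a peak in mock, against 151 and 157 after BMH-21. Some of these transcription ends held members themselves, whose peaks the rule keeps out of the BMH-21 lists, so part of this fall is set by the rule. Kept starts were similar, with no peak at the far end in 4609 of 6780 (68.0%, 66.9 to 69.1%), a mock-only far end in 940 (13.9%) and one with a peak in all 4 libraries in 438 (6.46%).

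Over all members with a separate far end, 1256 of 3110 (40.4%) had a peak there in all 4 libraries and 1314 (42.3%) in both BMH-21 libraries. The far end was mock-only in 351, BMH-21-only in 34 and without a peak in 1197. The number with a far-end peak was 1758 and 1779 in mock, against 1366 and 1378 after BMH-21. The means were 1768.5 ± 14.8 and 1372 ± 8.49 (SD, n = 2 libraries each), a difference of −396.5. Both BMH-21 values lay under both mock values. An exact two-sided permutation test over 3 splits gave p = 0.33, the smallest p that 2 against 2 libraries allow. Members were chosen by the same group labels and the mock lists are longer, so the test cannot decide the difference. In 88 of 2168 genes with a strand both ends held members. The peaks of such members at a far end are mock-only by the rule and add to the difference. With equal list lengths the difference was −30.5, over fewer members. Kept regions had a far-end peak in 2434 and 2519 of 8932 cases in mock, against 1038 and 1093 after BMH-21.

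**Figure D3:**
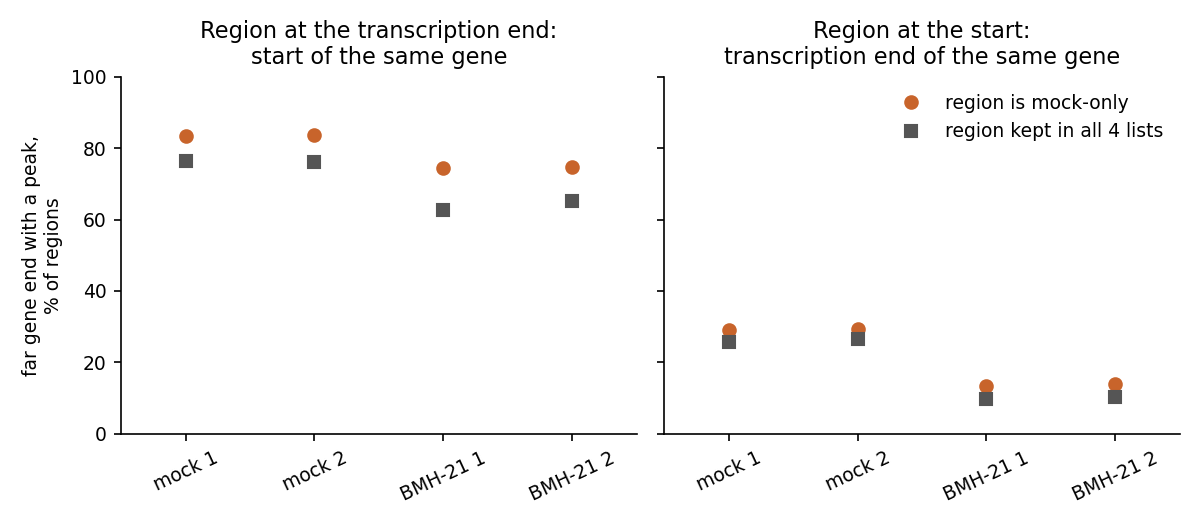
Percentage of regions whose gene has a peak at its other end, in each of the 4 libraries, for mock-only and kept regions, by the end at which the region lies. A peak at the other end can belong to another mock-only region, which the rule keeps out of the BMH-21 lists. For mock-only regions at transcription ends the start has a peak in 83.3 and 83.7% of mock and 74.4 and 74.7% of BMH-21 lists; for those at starts the far end has one in 29.1 and 29.4% against 13.3 and 13.9%.

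Many genes with a mock-only start still had a BMH-21 peak elsewhere. Starts with a mock-only region belonged to 1071 genes, of which 544 (50.8%) had a peak in both BMH-21 lists, while 445 (41.6%, 38.6 to 44.6%) had no peak in either BMH-21 list from 1 kb before to 1 kb after the gene. Peaks in the 1071 genes together numbered 4504 and 4750 for mock, but 1177 and 1304 for BMH-21. The mock numbers include the member peaks, which the rule keeps out of the BMH-21 lists. All autosomal peaks numbered 90181 and 97291 for mock, against 34899 and 38099 for BMH-21. Genes with a member at the transcription end had no BMH-21 peak in 140 of 1185 cases (11.8%). Another peak within 1 kb of the same start was present in both BMH-21 lists for 142 of the 1132 start regions (12.5%). A further listed start over 1 kb away existed for 130, and in 56 of them (43.1%) such a start had a peak in all 4 libraries. Members at both ends were found in 88 of 2168 genes with a strand.

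The strongest starts outside predicted genes were those of Sema3c, Acot12, Slc1a6 and Thsd7a. Sema3c, a secreted axon guidance cue, had a region on chromosome 5 (17574399 to 17575299) with folds of 13.7 and 14.5 and pileups of 75 and 76 fragments. Neither BMH-21 list held a peak anywhere in its 155 kb. Acot12, an acyl-CoA thioesterase of liver, had folds of 12.7 and 14.0. Slc1a6, a glutamate transporter of cerebellar neurons, had 13.4 and 12.9, and each BMH-21 list held 1 other peak in the gene. Thsd7a, a membrane protein with thrombospondin repeats, had 12.5 and 12.8 over a gene of 438 kb without a BMH-21 peak. Their high folds in both mock lists follow from the choice by rank. In all 4 genes the far end had no peak in any library. Sybu, whose product links mitochondria and vesicles to kinesin, had 12.6 and 14.1 in a gene without a strand in the table.

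The other 5 of the top 10 are uncertain, since copies of a gene can share reads. How alike any copies of these genes are was not tested. Gm3558 and Gm8108 are predicted genes on chromosome 14, with start folds of 17.9 and 13.9 and of 13.1 and 15.9. Prp2, Prb1 and Gm4736 lie close together on chromosome 6, where Prp2 and Prb1 encode salivary proline-rich proteins. Their mock-only regions lay at transcription ends, with folds from 12.2 to 17.5. None of the 5 genes had a BMH-21 peak.

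Among the strongest regions, some had a peak at the far end. In Cdh20, a cadherin gene, the start had folds of 9.76 and 10.5 in mock and none in BMH-21 lists. Its transcription end had 12.3 and 9.97 in mock, with BMH-21 peaks of 6.60 and 8.02. In Myo16, an unconventional myosin, both ends were mock-only, with 10.5 and 12.5 at the start and 4.33 and 6.40 at the end. Its 481 kb held 14 and 17 mock peaks against 1 in each BMH-21 list. Crb1, a polarity gene of photoreceptors, had 7.76 and 9.79 at the start and 4.15 and 5.46 at the end, with 6 mock peaks per library and none after BMH-21. Egflam, an extracellular matrix gene of retinal synapses, had 8.62 and 8.26 at the start and 5.73 and 4.40 at the end. Apbb1ip, an adaptor for integrin activation, had a mock-only transcription end at 7.0 and 9.15 and a mock-only start at 7.72 and 6.51. Hecw1 and Cidea had mock-only regions at both ends too, but no strand in the table.

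The far end had a peak in both BMH-21 lists and neither mock list for 34 of 3110 members (1.09%), a share like that of kept regions (89 of 8932, 0.996%). Manba, the lysosomal beta-mannosidase, had start folds of 10.1 and 9.28 in mock, while its transcription end had peaks of 6.23 and 5.08 in the BMH-21 libraries alone. Stk32a, a kinase gene, had 8.30 and 9.41 at one end in mock and 7.15 and 9.58 at the other after BMH-21. Dscaml1, a neuronal adhesion gene, had 8.87 and 9.15 against 3.16 and 5.25. Prps1l1, a testis-expressed phosphoribosyl pyrophosphate synthetase, had 6.18 and 7.33 against 7.99 and 6.76. In each of the 4 genes the 2 ends were called in opposite pairs of libraries.

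CpG content of the start followed the class. A table promoter of 300 bases (250 before and 50 after the start) overlapped 710 of 1132 mock-only and 6418 of 6780 kept start regions. Mock-only ones held a median of 9 CG dinucleotides, kept ones 23, while the median over all 32851 listed promoters was 7. The observed to expected CpG ratio had medians of 0.364, 0.796 and 0.384. GC content differed less, with medians of 58.3%, 63.3% and 52.7%. Read as shares, 56.1% (148 of 264) of start regions with 0 to 4 CG dinucleotides were mock-only, 35.9% with 5 to 9, 9.09% with 10 to 19 and 2.91% (124 of 4267) with 20 or more. Among regions of fold percentile 80 to 100 the shares were 32.8%, 16.1%, 5.92% and 2.41%. Hence Sema3c, Slc1a6 and Acot12 stood with the 76 strong regions that had 20 or more CG dinucleotides and were still mock-only, out of 3159.

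**Figure D4:**
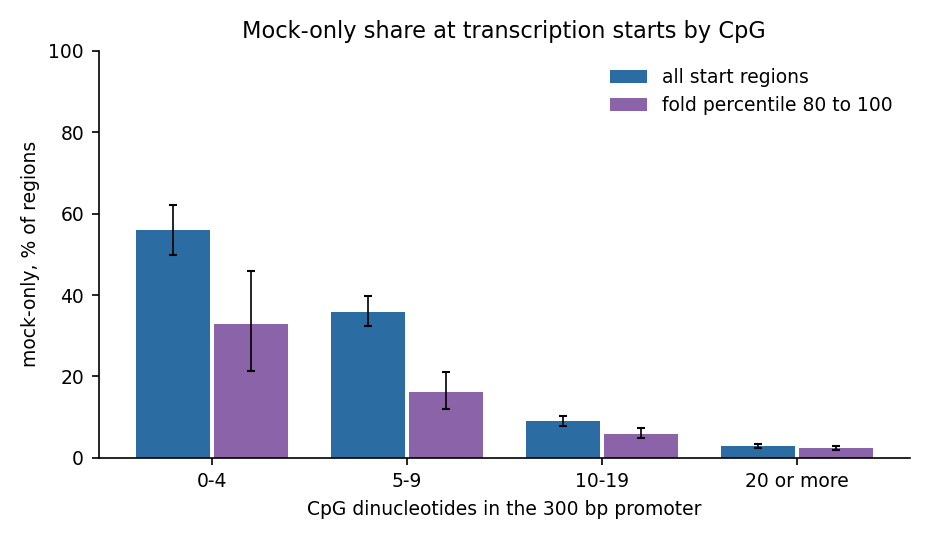
Share of mock-only regions (%) among start regions in both mock lists, by the number of CG dinucleotides in the 300-base promoter, for all strengths and for fold percentile 80 to 100, with exact 95% intervals. The share falls from 56.1 to 2.91% over all strengths and from 32.8 to 2.41% among the strongest.

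The same feature marked the starts of genes whose member lay at the transcription end. Starts with a peak in all 4 libraries had a median of 22 CG dinucleotides, those that were mock-only 5, and those without any peak 4. Gene length showed no single trend at starts. The mock-only share was 19% in genes under 10 kb, 9.81% from 30 to 100 kb and 23.6% above 300 kb. At transcription ends it ran from 68.8% under 10 kb to 76.9% from 100 to 300 kb and 82.4% (14 of 17) above 300 kb. By chromosome the share of both ends together ranged from 18.7% on chromosome 13 to 31.6% on chromosome 15.

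Genes of the nervous system, matrix and epithelia held many mock-only starts. The lists below were made with earlier results of these data known, and several share genes, so the counts are descriptions beside the 13.7% of all start regions. They are not matched for peak strength, with which the share of all starts fell from 48.8 to 5.14%. Keratins and secreted defence proteins had 21 mock-only of 28 start regions. Krt24 had folds of 6.86 and 11 and Serpinb6c 7.14 and 8.36. Neurotransmitter receptors had 23 of 50. Gabrg3, a GABA receptor subunit, had 11.9 and 12.0, Gria4, a glutamate receptor subunit, 10.9 and 12.3, and Htr1f, a serotonin receptor, 11.4 and 10.5. These 3 were named by their rank in the mock lists, and none had a far-end peak in both mock libraries. Matrix and integrin genes had 28 of 65, with the metalloprotease gene Adamts18 at 11 and 10.8.

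Ion channels had 33 mock-only of 87 start regions, among them the potassium channel genes Kcnj8 at 9.75 and 11.9 and Kcnh8 at 9.96 and 11.1. Adhesion genes had 13 of 34, with Cntn1, a contactin, at 9.67 and 10.7 and Cdh7 at 9.57 and 9.36. Signalling ligands and receptors had 27 of 81. Wnt6 had 7.58 and 7.72 at its start. Its transcription end had a peak in every library, at 4.06 and 4.04 in mock, with BMH-21 peaks of 5.01 and 5.18. Developmental transcription factors had 30 of 106. Sox5 had 9.16 and 8.48 at its start, and its 954 kb still held 6 and 8 BMH-21 peaks against 21 and 23 in mock. Six6, an eye and pituitary factor, had 6.92 and 7.37 at its start, and its other end was called in all 4 libraries, at 10.6 and 11.8 in mock, with BMH-21 peaks of 4.58 and 4.30.

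Immune receptors and cytokines had 26 of 86, with Cd34, a surface sialomucin, at 11.6 and 11.1 and Tnfsf11, the RANK ligand, at 10.3 and 11.2. Axon guidance genes had 10 of 42, including Sema3d at 11.6 and 11.7 and the netrin receptor gene Unc5c at 9.17 and 9.09. G protein-coupled receptors had 12 of 48, with the purine receptor gene P2ry1 at 10.4 and 11.5. Solute carriers had 33 of 204, with Slc22a29 at 11.6 and 13.1. Predicted genes had 87 of 255, where reads shared between copies were not tested either. In this group of lists the mock-only share of starts was above that of all starts, nearest to it for the solute carriers at 16.2%.

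Beside the 13.7% of all start regions, mock-only starts were fewer, as a share, in several lists of basic cell functions and in the meiosis list. The piRNA pathway list had none, but held only 13 start regions. Ribosomal protein genes had 0 mock-only of 76 start regions, RNA polymerase and nucleolar genes 0 of 34 and piRNA pathway genes 0 of 13. Splicing genes had 1 of 54, in Hnrnpf at 4.15 and 3.20. Meiosis genes had 1 of 30, in Prdm9, the methyltransferase that places meiotic recombination sites, at 4.21 and 3.03. Oxidative phosphorylation genes had 2 of 49, zinc finger genes of the Zfp and related families 14 of 242 and proteasome and ubiquitin genes 15 of 193. Spermiogenesis genes, at 8 of 79 (10.1%), lay near the share of all starts. Kinesin, myosin and tubulin genes, at 8 of 56, were close to the share of all starts. Spermatogonial genes, at 2 of 13 (15.4%), lay slightly above that share. Of the p53 target genes 2 of 18 (11.1%) and of the immediate early genes 1 of 18 (5.56%) start regions were mock-only, both from few regions.

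**Figure D5:**
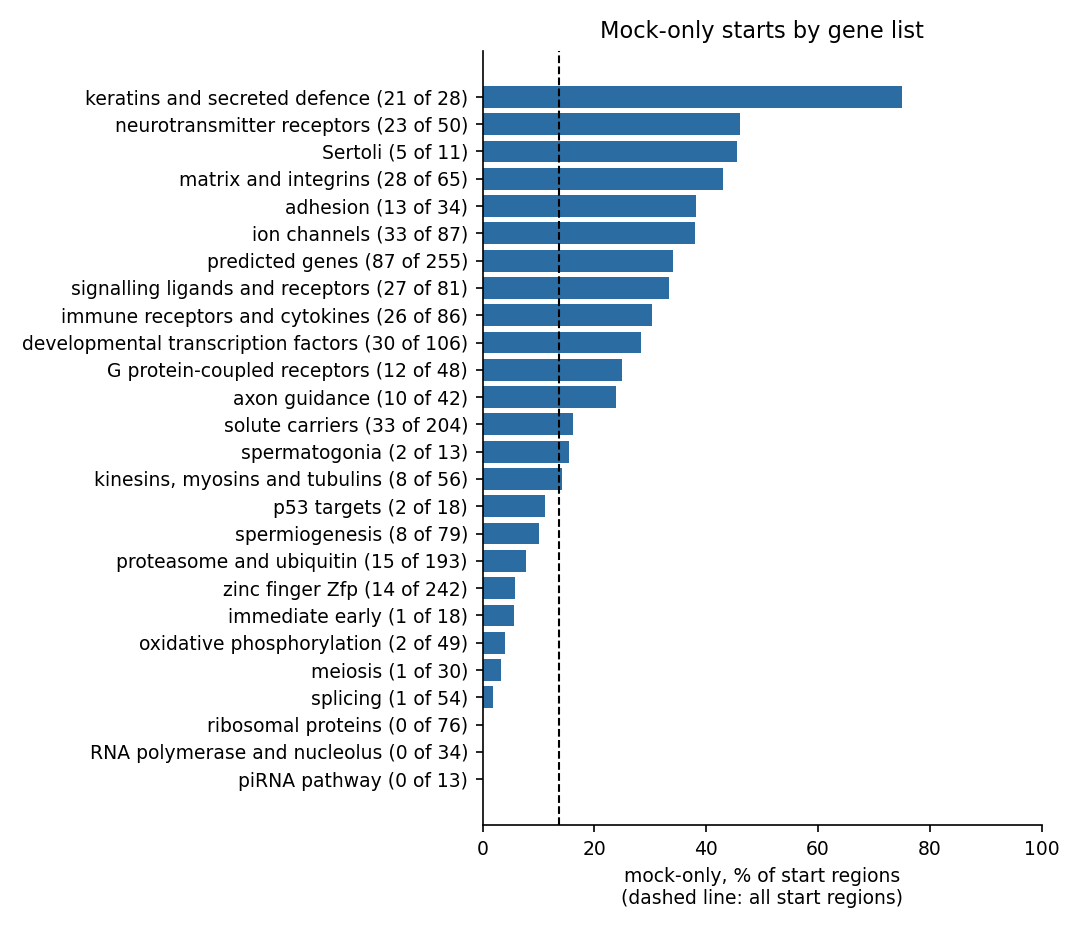
Mock-only share (%) of the start regions of each gene list with at least 10 of them, as bars with the counts beside each name, and the 13.7% of all start regions as a dashed line. Keratin and secreted defence genes lie at 75% and neurotransmitter receptors at 46.0%, while ribosomal protein, RNA polymerase and piRNA pathway genes lie at 0%.

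These lists still had members, at starts, at transcription ends and in genes without a strand. Transcription-end regions made up 7 of 7 members among RNA polymerase and nucleolar genes, 4 of 4 in the piRNA pathway, 6 of 9 among ribosomal protein genes and 8 of 10 among p53 targets. They were 10 of 26 among spermiogenesis genes, 3 of 10 for oxidative phosphorylation and 2 of 6 among immediate early genes. Of all 3182 members, 1248 (39.2%) were transcription-end regions. The spermiogenesis, oxidative phosphorylation and immediate early lists lay near or under that share, and all these lists are small. Of RNA polymerase and nucleolar genes, 7 of 10 transcription-end regions were mock-only, near the 72.7% of all transcription-end regions. The start of the gene had a peak in all 4 libraries for 6 of the 7. Polr1a, the largest subunit of the BMH-21 target RNA polymerase I, had folds of 2.91 and 3.31 at its transcription end. Its start had 9.09 and 9.40 in mock, with BMH-21 peaks of 5.89 and 5.53. Taf1a, a subunit of the promoter selectivity factor of that polymerase, had 3.92 and 3.87 at its end, with a start at 8.58 and 9.12 in mock, with BMH-21 peaks of 9.31 and 9.48. Nop9, a factor of ribosome assembly, had 4.45 and 4.90 at its end and a start at 7.49 and 7.97 in mock, with BMH-21 peaks of 5.98 and 6.09. In these 3 genes the starts were called in every library.

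Of the transcription-end regions of piRNA pathway genes 4 of 4 were mock-only, beside 72.7% of all transcription-end regions, and of meiosis genes 2 of 2. Tdrd9, a piRNA helicase, had 6.63 and 5.37 at its end and a start at 7.39 and 6.78 in mock, with BMH-21 peaks of 4.43 and 4.67. Ddx4, the germ-cell helicase also known as Vasa, had 3.79 and 6.02 at its end and a start at 11.4 and 12.9 in mock, with BMH-21 peaks of 6.78 and 7.80. Fkbp6 had 3.90 and 4.90 at its end and no peak at its start in any library. Brca2, a recombination mediator, had 4.80 and 3.44 at its end and a start at 14.1 and 14.4 in mock, with BMH-21 peaks of 9.16 and 10.3. Spo11, which makes meiotic DNA breaks, had 3.88 and 3.66 at an end without a strand in the table. Mrpl35 and Mrps27, of the mitochondrial ribosome, had kept starts at 8.22 or more in every library, and ends at 4.51 and 4.14 and at 3.72 and 3.64.

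Stress genes varied. Trp53, encoding p53, had 4.46 and 4.76 at its transcription end and a start at 6.63 and 6.87 in mock, with BMH-21 peaks of 5.76 and 5.14. Fas, the death receptor, had a mock-only start at 4.87 and 5.08 and no BMH-21 peak in the gene. Fos had 2.85 and 2.75 at its end, and its start had 5.59 and 5.40 in mock, with BMH-21 peaks of 6.39 and 6.37. Myc had a member at 4.10 and 4.50 near an end, and its 3 and 4 mock peaks had no BMH-21 counterpart.

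Genes that mark other cells of the testis were among the members, and their counts belong beside the gene lists above. Of the end regions of Sertoli markers 12 of 23 were mock-only, of leukocyte markers 9 of 13, of Leydig and peritubular markers 7 of 18, of endothelial markers 4 of 12 and of spermatogonial markers 8 of 26. The share of all gene-end regions was 24.7%, to which the spermatogonial (30.8%) and endothelial (33.3%) lists lay nearest. Kitl, the Kit ligand made by Sertoli cells, had start folds of 9.46 and 10.5 and no BMH-21 peak. Dmrt1, a factor of spermatogonia and Sertoli cells, had 8.29 and 7.52. Col1a2, a fibroblast collagen, had 7.40 and 8.09. By library, 19 and 20 of 23 Sertoli genes had a peak at an end in mock, against 11 and 12 after BMH-21. For leukocyte genes it was 15 and 17 of 23 against 6 and 8, for Leydig and peritubular genes 16 and 17 of 26 against 11 in each, for endothelial genes 11 in each of 16 against 8 in each, and for spermatogonial genes 23 and 24 of 27 against 17 and 19. Meiosis genes had 44 in each mock library and 44 and 43 of 47 after BMH-21. Over all 20665 genes the numbers were 14645 and 14778 against 12716 and 12818. Whether fewer cells of another type, rather than less access in spermatocytes, took part in the mock-only class was not tested, and in bulk libraries they cannot be told apart.

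Several genes carried more than 1 member. One region was found in 2605 of the 2884 genes, 2 regions in 260 and 3 or more in 19. Shbg, encoding the sex hormone binding globulin, had 1 region at its transcription end at 4.33 and 4.52 and 2 near its start at 3.98 and 5.76 and at 3.58 and 4.75, and no BMH-21 peak. Serpinf2, a plasma protease inhibitor, and Tnnc2, the fast muscle troponin C, had 3 regions each, at folds between 2.57 and 3.74, and also no BMH-21 peak. Gadd45b, a stress response gene, had 3 regions between 2.28 and 3.08, but its start also carried BMH-21 peaks, at 6.24 and 7.14. Fcgrt, the neonatal Fc receptor, had 3 regions between 3.21 and 6.33 and a peak at its transcription end in all 4 libraries. Neighbouring regions at 1 gene end can share local background and are not independent.

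On the X chromosome, which is silenced at pachytene, 104 of 664 gene-end regions in both mock lists were mock-only (15.7%, 95% interval 13.0 to 18.7%). The share was 10.1% (43 of 425) at transcription starts and 37.5% (45 of 120) at transcription ends, against 13.7% and 72.7% on the autosomes. In the reverse direction, 397 regions at an end of 1 autosomal protein-coding gene were called in both BMH-21 lists and neither mock list.

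The window limit fell within a run of like regions. The members nearest to it lay 1000 bp from an end, at Tssk5 with folds of 2.72 and 2.44 and at Plin3 with 3.04 and 4.62. The nearest mock-only regions outside lay at 1001 bp, at Bmp4 with 2.39 and 2.42 and at Piezo2 with 8.31 and 7.63.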

How the data were processed

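ATAC-seq peak lists of 4 libraries were used, 2 mock and 2 BMH-21. MACS2 2.1.0, deepTools, bedtools, Bowtie2 and fastp are listed, without roles, in the submitters' processing notes. For calling parameters, duplicate removal and read shifting, the settings are not given in the sources used here. The notes name both mm10 and mm39. Coordinates were taken as mm10, since a peak reaches position 195371813 of chromosome 1, which lies beyond its end in mm39. The deposited fold of a peak is a ratio of summit pileup to local background within 1 library, and the deposited −log10 p and −log10 q values and the deposited score describe the same enrichment. None is normalised between libraries, so ranks and filters were applied within a list, and folds of different libraries are given side by side without a comparison of size. The authors deposited 1 list per library, so peaks were called per library.

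Peaks were merged at 1 bp of overlap. Gene ends came from RefSeq GRCm38.p6 without exons or strand, and strand was taken from the promoter table where it gave one. A far end counts as having a peak when a peak outside the region lies within 1 kb of it, and peaks of different libraries there need not overlap. Pileup and background were recovered from fold and p by the caller's Poisson relation, which returned −log10 p to within 0.0008. Read totals were not used, and the recovered background stands in for depth. Sequencing was paired 150 bp after 14 PCR cycles, per the labels. Intervals are exact Clopper-Pearson 95% and cover counting error only. Group means were compared by exact permutation over 3 splits.

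Genes were named by rank of mean mock fold percentile: the top 10, the top 6, 6 and 4 with a kept, mock-only or BMH-21-only far end, up to 3 per gene list, the 2 nearest on each side of the window limit and the 5 genes with most regions, of which those informative for a group are described. The members and the 29 gene lists were chosen with earlier results of these data known. Alternatives were a −log10 q of at least 5, equal list lengths, summit windows, 50% coverage, other windows and leaving out each library. Replicate numbers are not stated to pair libraries. Scripts were tested on simulated data. Python 3.11.15, pandas 2.3.3, numpy 2.4.6, scipy 1.17.1 and matplotlib 3.10.9 were used.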

Additional observations from a re-analysis of the deposited data

How the results depend on the processing

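The numbers of mock-only regions moved with list length and window, and the higher share at transcription ends than at starts held under every alternative run. At a −log10 q of at least 5 the share at transcription ends was 75.2%. With equal list lengths there were 1315 members, 12.8% of gene-end regions, 7.92% of starts and 58.7% of transcription ends, and both BMH-21 libraries held a far-end peak for 35.2% of all members and 9.48% of start members. With summit windows the shares were 39.4% at both ends together, 31.5% at starts and 76.4% at transcription ends, with far ends at 28.4% of all and 7.93% of start members. With 50% coverage they were 31.6%, 20.3% and 80.9%, with far ends at 37.3%. A 500 bp window gave 1824 members, 18.1% at both ends together, 11.3% at starts and 75.3% at transcription ends, with far ends at 30.5% of all, 67.9% of transcription-end and 6.78% of start members. A 2.5 kb window gave 6006 members, 35.9% at both ends together and 19.6% at starts, with far ends at 55.2%, 78.4% and 22.0%. The cause of these moves was not tested. Leaving out each library in turn gave 3490 to 4329 members, shares of 27.0 to 30.4% at both ends together, 15.4 to 17.3% at starts and 76.6 to 78.4% at transcription ends, far ends in both remaining BMH-21 libraries, or the remaining one, for 42.6 to 43.3% of members, and a difference in far-end peaks of −554.5 to −436.5. With the replicate number as a block, the far-end difference was −392 and −401 in the 2 pairs, a mean of −396.5 (exact sign-flip p = 0.5, the smallest possible with 2 pairs). The members were chosen by the same group labels, so this p cannot decide the difference either. Of 108 named genes, 55 had a member under every alternative, 82 with equal list lengths and 72 with the 500 bp window. Depth limits the reading to presence above the caller's threshold, and 2 libraries per group cannot reach a p under 0.05.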

Other observations

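Promoter motifs, searched on both strands of the 300-base promoters, differed in frequency between mock-only and kept start regions. The GC box GGGCGG was in 46.9% of 710 mock-only, 72.9% of 6418 kept and 35.7% of all 32851 promoters. The Ets motif CCGGAAG was in 4.37%, 17.5% and 8.86%, the CRE TGACGTCA in 0.845%, 3.57% and 1.79%, and the Nrf1 core in 0%, 2.43% and 0.971%. These 4 motifs contain CG, as do the E-box CACGTG, in 7.46%, 11.1% and 7.15%, and the Myb motif TAACGG, in 0.986%, 3.6% and 2.76%. Without a CG, TATAAA was in 10.1%, 5.41% and 13.6%, the AP-1 motif TGANTCA in 7.89%, 3.54% and 7.81%, CCAAT in 28.7%, 37.6% and 37.4%, the Yy1 core AAGATGG in 3.52%, 7.0% and 6.34%, and the Gata motif AGATAAG in 2.54%, 1.34% and 3.04%. A match is a run of letters, not a bound site. A lncRNA gene end within 1 kb was found for 6.69% of mock-only and 13.4% of kept gene-end regions.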
